A study of Mus musculus with 3 samples.

Results

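The CXC chemokines are a family of small secreted proteins named for a pair of cysteines with 1 residue between them. The 9 genes described here (Cxcl1, Cxcl2, Cxcl9, Cxcl10, Cxcl11, Cxcl12, Cxcl13, Cxcl14 and Cxcl16) were chosen by symbol from the 21750 features of a single-cell RNA count matrix, and each symbol matched 1 feature. Their UMIs (unique molecular identifiers, each standing for 1 captured RNA molecule) were summed over cells of each type, and types were gated on marker genes outside the list. The library came from the hippocampus of 5 Aldh1l1CreERT2;Rosa26-LSL-tdTomato mice, whose cells were pooled. In these mice the Aldh1l1 promoter drives a tamoxifen-inducible Cre recombinase in the astrocyte lineage, and recombined cells express tdTomato. All 5 mice had received the Cre-dependent vector AAV-TIGRi-Hopx, which carries an EGFP reporter and represses Hopx, and tissue was taken 3 weeks after tamoxifen. Cells positive for both reporters were enriched by flow sorting. The ages of the mice are not given in the sources used here. Only this library was analysed, with no vector-free counterpart beside it, and the files assign no cell to a mouse. The state of these cells and any effect of the vector therefore cannot be told apart.

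CXC chemokines attract leukocytes and other cells by binding receptors on the cell surface. Cxcl1 and Cxcl2 attract neutrophils through Cxcr2, while Cxcl9, Cxcl10 and Cxcl11 are interferon-induced ligands of Cxcr3 on T cells and natural killer cells. Cxcl13 attracts B cells through Cxcr5, Cxcl12 acts through Cxcr4 and is scavenged by Ackr3, and Cxcl16 is a membrane-bound ligand of Cxcr6 that proteases can release. Cxcl14 is a ligand made by resting tissues whose receptor is less settled.

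The matrix held 6672 barcodes, of which 6485 had at least 500 genes and at most 15% mitochondrial UMIs, with 610.0 to 42440 UMIs each (median 5564) and 41760631 in all. Although the sort was for astrocyte-lineage cells, 146 barcodes passed the astrocyte gate, against 2356 for microglia, 1532 for endothelial cells, 608 for choroid plexus, 601 for ependymal cells, 228 for border macrophages, 87 for oligodendrocytes, 35 for B cells, 31 for neurons, 26 for recruited macrophages and 25 for T or NK cells. Types of fewer than 20 cells were fibroblasts (15), mural cells (7), dendritic cells (2), oligodendrocyte precursors (2) and neutrophils (1). A further 479 barcodes had too few markers for any gate, and 304 reached several gates, of which Scrublet called 166 as doublets. Called doublets were kept elsewhere. With 1 library there is no replicate and no test. All intervals are exact 95% intervals that cover counting error only, and CPM is UMIs of the gene per 1000000 UMIs of the group. CPM compares a gene between types, and on this UMI scale it is not divided by gene length.

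The promoters of 4 members are shown, and any link to how these genes were distributed was not tested. These promoters come from the RefSeq promoter windows on GRCm38.p6, which held 7 of the 9 members (not Cxcl11 and Cxcl16). Each line is the 250 bases before the gene's start, written 5′ to 3′ on the gene's strand, with motif matches in capitals. Cxcl10 lies at chr5:92348890-92349139 (minus strand), Cxcl9 at chr5:92328080-92328329 (minus strand), Cxcl1 at chr5:90890995-90891244 (plus strand) and Cxcl2 at chr5:90903649-90903898 (plus strand).
Cxcl10: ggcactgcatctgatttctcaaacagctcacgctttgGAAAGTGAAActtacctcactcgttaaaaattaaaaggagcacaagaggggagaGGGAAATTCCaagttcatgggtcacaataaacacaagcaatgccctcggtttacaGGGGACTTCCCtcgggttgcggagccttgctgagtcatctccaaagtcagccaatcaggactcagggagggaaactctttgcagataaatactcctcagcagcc
Cxcl9: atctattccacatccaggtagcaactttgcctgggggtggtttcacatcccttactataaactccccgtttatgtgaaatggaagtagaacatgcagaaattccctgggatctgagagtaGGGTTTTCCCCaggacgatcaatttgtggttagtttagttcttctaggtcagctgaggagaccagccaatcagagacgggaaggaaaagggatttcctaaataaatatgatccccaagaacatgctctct
Cxcl1: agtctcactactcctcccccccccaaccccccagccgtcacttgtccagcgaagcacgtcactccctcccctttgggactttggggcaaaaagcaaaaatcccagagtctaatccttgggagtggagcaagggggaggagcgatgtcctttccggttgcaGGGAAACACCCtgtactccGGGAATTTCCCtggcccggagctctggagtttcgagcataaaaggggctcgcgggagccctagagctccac
Cxcl2: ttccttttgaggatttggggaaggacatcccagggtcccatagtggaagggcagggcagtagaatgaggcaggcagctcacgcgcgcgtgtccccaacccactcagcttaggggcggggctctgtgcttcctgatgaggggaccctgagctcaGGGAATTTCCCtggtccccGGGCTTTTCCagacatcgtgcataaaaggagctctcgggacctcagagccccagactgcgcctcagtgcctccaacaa

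Motifs were searched on both strands. The letters of an interferon-stimulated element (GAAA, any 2 bases, GAAA) occurred once in the Cxcl10 window, starting at -213 from the gene's start, and had no match in those of Cxcl9, Cxcl1 and Cxcl2. Of all 32851 RefSeq windows of this length, 2.98% held them. The letters of an NF-kB site (GGG, any 5 bases, CC) matched in all 4 windows, at -159, -104 and -103 for Cxcl10, at -130 and -129 for Cxcl9, at -90, -89, -71 and -70 for Cxcl1, and at -97, -96 and -78 for Cxcl2, with neighbouring starts overlapping each other. That motif is loose, and 45.8% of all windows held it. The letters of a gamma-activated site, TTCNNNGAA, which reads the same on both strands, matched in none of these 4 windows and in 7.02% of all windows. The Cxcl14 window held 1 match of the interferon-stimulated element and 1 of the gamma-activated site, and those of Cxcl12 and Cxcl13 held 1 NF-kB match each. These matches describe letters in a window and do not show that a factor binds there.

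The 9 genes differed in which cell types held their UMIs, though several shared a main source. Microglia held 16392992 of the 41760631 UMIs of all genes, so these shares depend on the make-up of the library as well as on levels. Microglia, the resident macrophages of the brain, held most UMIs of Cxcl13 (90.0%), Cxcl11 (80.3%), Cxcl10 (75.0%), Cxcl16 (73.5%) and Cxcl9 (69.0%). Endothelial cells held 90.5% of Cxcl12 UMIs and 47.7% of Cxcl1 UMIs. Cxcl2 was spread over border macrophages (31.7%), microglia (29.5%) and recruited macrophages (16.9%), and Cxcl14 over astrocytes (42.5%) and ependymal cells (31.1%). Cells with at least 1 UMI ranged from 111 for Cxcl1 to 2206 for Cxcl16 among the 6485, and total UMIs from 333 for Cxcl1 to 20948 for Cxcl13.

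**Figure D1:**
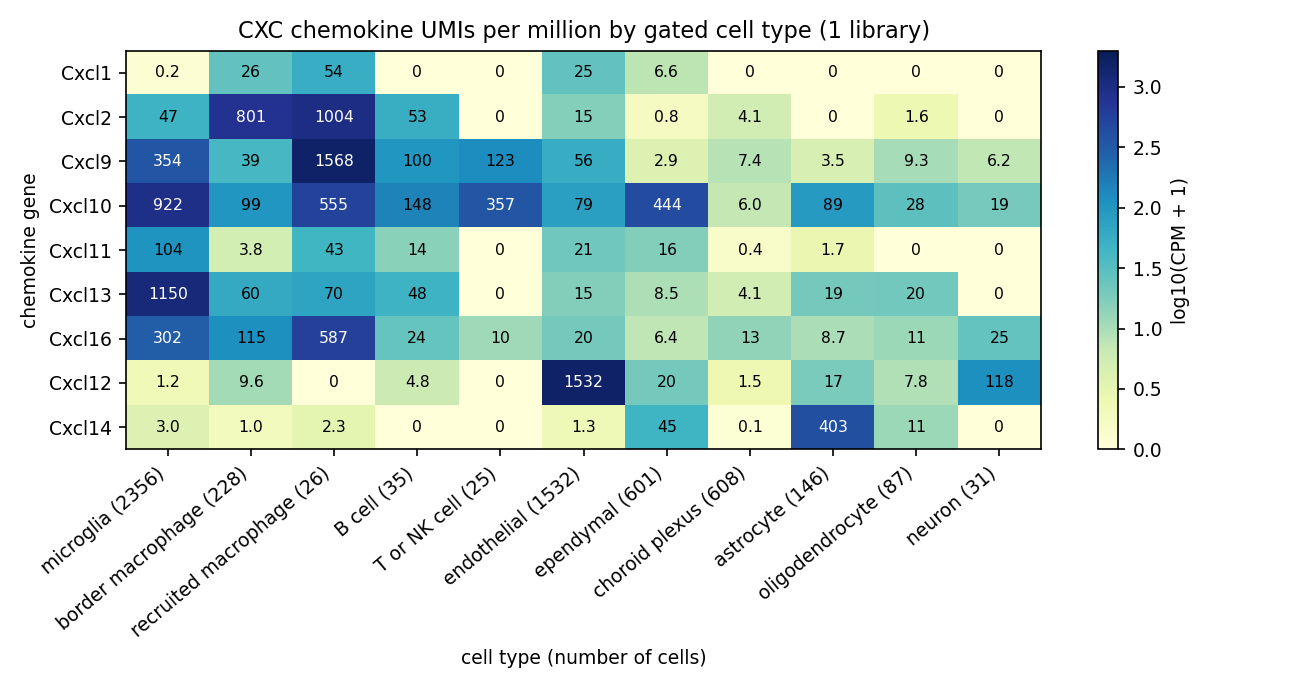
Heat map of CPM (numbers in the cells, colour on a log10 scale with 1 added) for the 9 chemokine genes in the 11 gated cell types of at least 20 cells, with the number of cells in brackets. Cxcl13 stands at 1149.9 in microglia and 70.0 in the next type, and Cxcl12 at 1532 in endothelial cells and 118 in neurons.

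Cxcl1 and Cxcl2, the neutrophil attractants, were both found in few cells, Cxcl2 at high levels in macrophages and Cxcl1 at low levels. Cxcl2 stood at 1004 CPM (913 to 1102) in recruited macrophages, in 19 of 26 cells, and at 801 CPM (747 to 857) in border macrophages, in 64 of 228 cells (28.1%, 22.3 to 34.4). Microglia stood at 47.3 CPM (44.0 to 50.7), with a UMI in 4.67% of cells, and 12 of their 2356 cells held at least 50% of the microglial UMIs. Endothelial cells stood at 15.2 CPM, and the single neutrophil had 24 Cxcl2 UMIs. Both macrophage populations thus lay well above microglia, but their own order depended on the gate and on single cells. Of the 26 recruited macrophages 10 had the minimum of 3 markers, and 13 also passed a stricter gate. That gate gave 718 CPM in recruited and 909 CPM in border macrophages. Recruited macrophages had a median of 17741.5 UMIs per cell, border macrophages 4382.5 and microglia 6572.5. Shares of cells with a UMI, here and below, are therefore not at equal depth between these types. Without their top cells, of which the recruited macrophage had 141 UMIs, the levels were 715 CPM in recruited and 723 CPM in border macrophages. With types taken from Leiden clusters, recruited macrophages stood at 813 CPM and border macrophages at 514 CPM.

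Cxcl1 was the scarcest member. Recruited macrophages stood at 54.2 CPM (34.7 to 80.6), but 20 of their 24 UMIs came from 1 cell, and without it the level was 9.59 CPM. A stricter gate gave 86.5 CPM. Border macrophages stood at 26.0 CPM (17.1 to 37.8) from 6 cells, or 15.5 without the top cell, and endothelial cells at 25.4 CPM (21.6 to 29.6) from 61 of 1532 cells. These 2 levels did not differ beyond counting error. Microglia had 3 Cxcl1 UMIs, all in 1 cell, or 0.183 CPM (0.0377 to 0.535), although 110 microglia had a Cxcl2 UMI. In endothelial cells the genes were found together: 12 of 23 cells with Cxcl2 also had Cxcl1 (52.2%, 30.6 to 73.2), against 3.25% of the cells without Cxcl2. Choroid plexus cells, with 6788591 UMIs in all, had no Cxcl1 UMI, which allows up to 0.442 CPM at 3 counts.

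Cxcl9, Cxcl10 and Cxcl11, the ligands of Cxcr3, were not distributed alike. Cxcl10 was highest in microglia at 922 CPM (907 to 936), in 39.0% of cells, followed by recruited macrophages at 555 CPM (488 to 629) and ependymal cells at 444 CPM (423 to 466). The last level did not separate from that of T or NK cells (357 CPM, 249 to 497, 8 of 25 cells), where 22 of 35 UMIs lay in 1 cell and the level without it was 142 CPM. Cxcl9 was highest in recruited macrophages at 1568 CPM (1454 to 1689.5), in 19 of 26 cells, and 4.43-fold lower in microglia at 354 CPM (345 to 363), in 23.9% of cells. Recruited macrophages defined by clusters rather than gates stood at 903 CPM for Cxcl9, still above microglia. Cxcl11 was also highest in microglia, at 104 CPM (98.7 to 109), followed by recruited macrophages at 42.9 CPM (25.8 to 66.96). Next came endothelial cells at 20.9 CPM (17.5 to 24.8) and ependymal cells at 15.7 CPM (11.9 to 20.2), which did not differ beyond counting error, and T or NK cells had no Cxcl11 UMI (0 to 37.7 CPM).

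Ependymal cells had Cxcl10 but little Cxcl9. At 444 CPM their Cxcl10 level was 48.2% of the microglial level, while Cxcl9 stood at 2.92 CPM (1.46 to 5.22), or 0.824% of it. The ependymal Cxcl10 level was 365 CPM without the top cell, 356 CPM with cells weighed equally and 412 CPM with types taken from clusters. In the gated ependymal cells 5 microglial genes that such cells should lack (C1qa, C1qb, C1qc, Csf1r and Cx3cr1) stood at 0.456% to 1.10% of their microglial levels, which measures RNA carried over from microglia. Cxcl9 and Cxcl13 (0.738%) lay within that range, so their ependymal UMIs are read as background. Choroid plexus cells, at a median of 10769 UMIs each, stood at 0.655% for Cxcl10 and 0.359% for Cxcl13, against 0.660% to 1.23% for the same 5 genes, and are read as background for both chemokines. Their Cxcl16 level of 12.7 CPM was 4.19% of the microglial level, above that range. So were their levels of Cxcl2 (8.72%, 5.76 to 12.7) and Cxcl9 (2.08%, 1.54 to 2.75), but 25 of 28 Cxcl2 UMIs and 41 of 50 Cxcl9 UMIs came from 1 cell each, against at most 10 of 86 for Cxcl16.

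Astrocytes, the intended population, had 51 Cxcl10 UMIs in 12 of 146 cells (8.22%, 4.32 to 13.9), or 88.7 CPM (66.0 to 117). This was 9.62% of the microglial level, while the 5 microglial genes stood at 1.68% to 2.08% in astrocytes. Cxcl13 (1.66%) and Cxcl9 (0.982%) in astrocytes did not exceed those genes. At a depth of 2000 UMIs per cell, 6 of the 100 astrocytes deep enough had a Cxcl10 UMI.

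Cxcl13, the B cell attractant, came mainly from microglia. They stood at 1149.9 CPM (1134 to 1166), in 1008 of 2356 cells (42.8%, 40.8 to 44.8), and the next type, recruited macrophages, at 70.0 CPM (47.5 to 99.3), a ratio of 16.4 (11.6 to 24.2). The microglial level was uneven among cells: 85 cells, with up to 337 UMIs each, held at least 50% of the 18851 UMIs. In recruited and border macrophages 26 of 31 and 48 of 62 Cxcl13 UMIs came from 1 cell each.

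Cxcl16, the membrane-bound ligand, was the most widely detected member. It was found in 25 of 26 recruited macrophages at 587 CPM (518 to 663), in 68.5% of microglia at 302 CPM (294 to 311) and in 32.0% of border macrophages at 115 CPM (95.6 to 138), and the 3 levels did not overlap. The shares of cells follow depth as well, with a median of 17741.5 UMIs in recruited macrophages and 6572.5 in microglia. At 2000 UMIs per cell the Cxcl16 share of microglia was 38.5%. Its microglial UMIs were spread more evenly than those of Cxcl13, with at least 50% of them in 340 cells and no cell above 22. The sheddases that release it were broadly present: Adam10 stood at 223 CPM in microglia and 243 CPM in endothelial cells, and Adam17 at 138 CPM in microglia.

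Cxcl12, which acts on Cxcr4, was an endothelial gene in these cells. Haemoglobin transcripts led the genes that set the gated endothelial cells apart. Endothelial cells stood at 1532 CPM (1502 to 1563), in 81.0% of 1532 cells (78.9 to 82.9), and 250 cells held at least 50% of the UMIs. Neurons followed at 118 CPM (70.8 to 184), with 19 UMIs in 13 of 31 cells and never more than 3 in a cell. That level was 7.67% of the endothelial one, while 5 endothelial genes (Ptprb, Abcb1a, Esam, Itm2a and Ly6a) stood at 0% to 1.55% in neurons, and the 5 microglial genes at 0.769% to 9.09% of their own source. The gated neurons were led by Nhlh2, Lhx5, Neurod1 and Lhx1, transcription factors of developing neurons. With types taken from clusters the neuronal level was 216 CPM. The 15 fibroblasts had 25 UMIs (284 CPM), 12 of them in 1 cell, and microglia had 20 UMIs in 2356 cells, or 1.22 CPM.

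Within the endothelium Cxcl12 differed by vessel zone, gated on markers outside the family. Capillary cells (1133) stood at 1761 CPM (1723 to 1799.8), arterial cells (147) at 1403 CPM (1309 to 1501) and venous cells (74) at 182 CPM (139.8 to 233). Venous cells thus had 0.103 times the capillary level (0.0793 to 0.132), and arterial cells 0.796 times (0.741 to 0.855). Some other members had higher levels in venous cells, but on very few cells. The venous gate rested on Nr2f2, Lrg1, Vwf, Slc38a5, Selp, Il1r1 and Vcam1, and the part of this choice in those levels was not tested. Venous cells stood at 534 CPM for Cxcl10 and 609 CPM for Cxcl9, yet 165 of 185 and 204 of 211 UMIs came from a single cell each. Without that cell venous levels were 59.1 CPM (36.1 to 91.3) for Cxcl10 and 20.7 CPM (8.32 to 42.6) for Cxcl9. Capillary levels were 48.5 and 27.0 CPM, or 39.4 (33.9 to 45.6) and 18.5 (14.8 to 22.9) CPM without their own top cells. With top cells left out of both zones, the intervals overlapped for both genes. Cxcl1 stood at 46.2 CPM in venous and 17.8 CPM in capillary cells, a ratio of 2.59 (1.41 to 4.46) that rests on 16 venous UMIs. Without their top cells venous cells stood at 32.4 CPM (16.2 to 58.0) and capillary cells at 14.8 CPM (11.5 to 18.8). The 178 endothelial cells that reached no zone gate had the highest Cxcl1 level, 74.3 CPM (55.8 to 96.96), with 54 of the 159 endothelial UMIs, 17 of them in 1 cell.

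**Figure D2:**
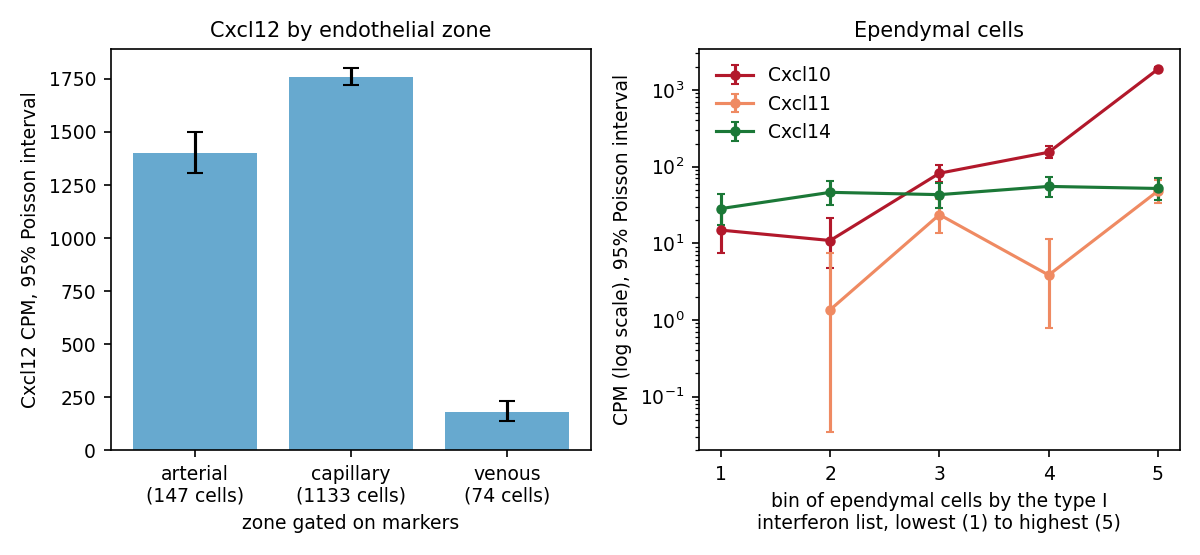
Left, Cxcl12 CPM in arterial, capillary and venous endothelial cells (bars from 0, whiskers are exact 95% Poisson intervals): venous cells stand at 182 against 1761 in capillary cells. Right, CPM of Cxcl10, Cxcl11 and Cxcl14 on a log axis in 5 equal bins of ependymal cells ranked by the type I interferon list (bins with 0 UMIs not drawn): Cxcl10 goes from 14.8 in the lowest bin to 1866 in the highest.

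Cxcl14 was highest in astrocytes. Astrocytes stood at 403 CPM (353 to 459), in 76 of 146 cells (52.1%, 43.6 to 60.4), and ependymal cells at 45.1 CPM (38.6 to 52.4), in 133 of 601 cells (22.1%), a ratio of 8.94 (7.31 to 11.0). No astrocyte had more than 10 UMIs and no ependymal cell more than 4. Microglia stood at 2.99 CPM. Astrocytes with a Cxcl14 UMI had a median depth of 5038.5 UMIs and those without 1949.5, so absence at this depth does not separate 2 kinds of astrocyte. At 2000 UMIs per cell the share was 45.0%.

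Which chemokines occurred in the same cells was read in microglia, where 1981 of 2356 cells had at least 1 member, 789 at least 3 and 11 as many as 6. Several pairs were linked. Cxcl10 was found in 82.5% (77.9 to 86.4) of 331 microglia with Cxcl11 and in 32.0% of those without. Cxcl13 was found in 76.1% (72.3 to 79.5) of 564 microglia with Cxcl9 and in 32.3% of those without. Cxcl11 also went with both genes of that pair: Cxcl13 was found in 72.2% (67.04 to 77.0) of microglia with Cxcl11 and in 38.0% without, and Cxcl9 in 42.3% (36.9 to 47.8) and 20.9%. Cxcl9 and Cxcl10, which share a receptor, differed less, and their intervals overlapped: Cxcl10 was found in 43.8% (39.7 to 48.0) of cells with Cxcl9 and in 37.6% without. Cells were sorted by all 3 Cxcr3 ligands into 289 with Cxcl9 alone, 512 with Cxcl10 alone, 30 with Cxcl11 alone and 112 with all 3. Shares by Cxcl2 were lower for Cxcl13 and Cxcl9, with overlapping intervals, and higher for Cxcl10: among 110 microglia with Cxcl2, 32.7% (24.1 to 42.3) had Cxcl13 against 43.3% of the rest, and 16.4% (10.0 to 24.6) had Cxcl9 against 24.3%, while 62.7% (53.0 to 71.8) had Cxcl10 against 37.9%. Cells with a chemokine UMI were somewhat deeper, at a median of 7991 UMIs with and 6140.5 without Cxcl9. At 2000 UMIs per cell the shares were 82.1% against 26.1% for Cxcl10 by Cxcl11, 64.7% against 24.2% for Cxcl13 by Cxcl9, 57.1% against 28.3% for Cxcl13 by Cxcl11, 34.0% against 29.9% for Cxcl10 by Cxcl9, and 16.7% against 31.0% for Cxcl13 by Cxcl2.

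**Figure D3:**
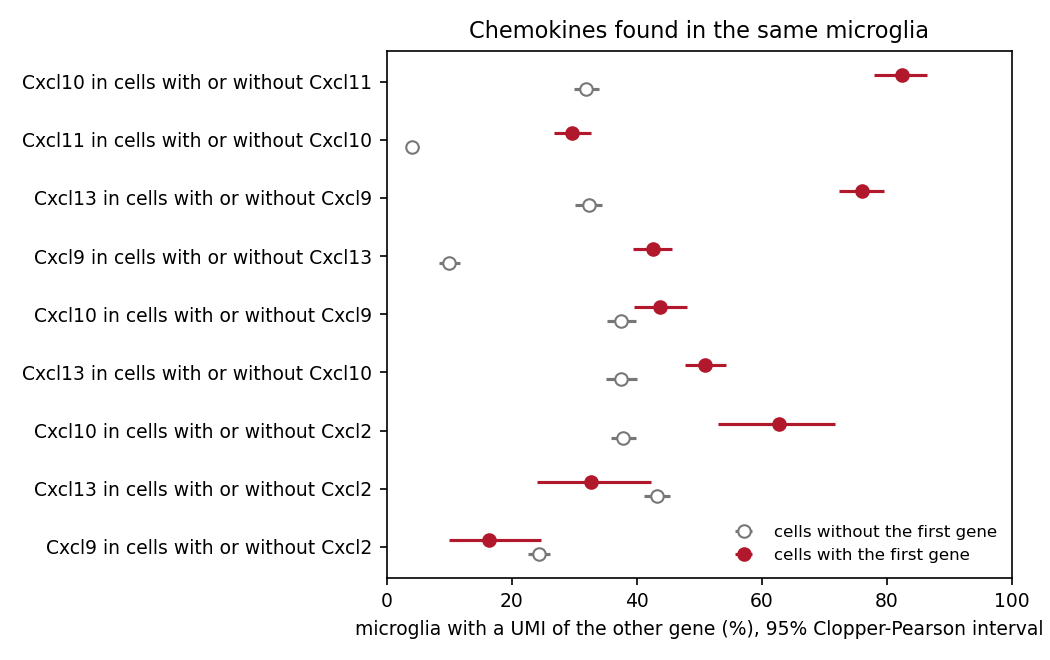
Percent of microglia with a UMI of a chemokine among cells with (filled) and without (open) a UMI of another, with exact 95% Clopper-Pearson intervals as bars. The pairs Cxcl10 with Cxcl11 and Cxcl13 with Cxcl9 are far apart (82.5 against 32.0% and 76.1 against 32.3%), and Cxcl10 with Cxcl9 is close (43.8 against 37.6%).

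The other genes of microglia with and without each chemokine were compared on fixed lists. A gene was counted as higher when its share of UMIs was at least 2 times that in cells without the chemokine, among genes with at least 20 UMIs, and lower at 0.5 times or less. In microglia with Cxcl10, 6 of 18 type I interferon genes and 4 of 18 NF-kB genes were higher, against 1.52% of all 11138 genes. Their median log2 ratios were 0.39 and 0.71, against -0.08 over all genes. The interferon genes were led by Cmpk2 (33.9 against 8.45 CPM, ratio 4.01), Rsad2 (239 against 77.7 CPM, 3.08) and Ifit1 (94.6 against 31.5 CPM), and the NF-kB genes by Bcl3 (ratio 2.71), Ptgs2 (2.34) and Traf1 (2.06). Of the 18 interferon gamma and GTPase genes, Gbp5 alone was higher, at a ratio of 2.11, but the list median was 0.38. With Cxcl11, 7 of 18 type I interferon genes, 5 of 18 interferon gamma and GTPase genes and 2 of 18 NF-kB genes were higher, against 1.7% of all genes, led by Ifit1 (154 against 39.6 CPM), Gbp5 (ratio 2.58) and Traf1 (2.51).

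With Cxcl13, 4 of 18 type I interferon genes were higher (against 1.6% of all genes), among them Ifit1 (84.3 against 34.4 CPM), Isg15 (430.3 against 179 CPM) and Rsad2 (208 against 89.3 CPM), with a list median of 0.83. The NF-kB list had a median of -0.25, against -0.07 over all genes, with 1 gene higher (Traf1, ratio 2.07) and 1 lower (Il6, 0.488). Of the 14 immediate early and heat shock genes, which respond to cell handling, 3 were lower, against 3.21% of all genes: Jun (822 against 2504 CPM), Hspa1b (268 against 601 CPM) and Hspa1a (358 against 779 CPM). With Cxcl9 the NF-kB list had a median of -0.40, against -0.04 over all genes. None of the 18 type I interferon genes was 2 times higher (median 0.51), 2 of 18 interferon gamma and GTPase genes were (Gbp2, 140.1 against 60.1 CPM, and Gbp4, 24.9 against 11.98 CPM), against 0.853% of all genes, and 2 of 18 NF-kB genes were lower (Nfkbia, 930.2 against 1931 CPM, and Il6, ratio 0.379), against 3.78%. Jun was also lower (643 against 2086 CPM).

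With Cxcl2, 6 of 18 NF-kB genes were higher (led by Ptgs2, ratio 3.06, Nfkbiz, 2.51, and Nfkbia, 3650.4 against 1531 CPM), against 2.99% of all genes, and 1 was lower (Il6, with 0 against 68 UMIs), against 8.31%. The type I interferon list had no gene higher and a median of -0.33. Lpl (2.59) and Spp1 (2.41), of the lipid and phagocytosis list, were higher as well. With Cxcl16, 5 of 10 lipid and phagocytosis genes were higher, led by Lgals3 (151 against 50.5 CPM), Cst7 and Gpnmb, against 2.18% of all genes. That count depends on depth: with microglia called positive at 2000 UMIs per cell it was 0 of 10. Of 18 type I interferon genes 4 were higher with Cxcl16 too, with a list median of 0.53 against -0.11 over all genes. This second count was not recomputed at 2000 UMIs. The interferon gamma and GTPase list and the NF-kB list had 1 of 18 genes higher each. In border macrophages with Cxcl2, 2 of 14 measured NF-kB genes were higher, against 2.39% of all genes: Icam1, an adhesion molecule, at 123 against 18.0 CPM, and Il1a at 53.7 against 9.67 CPM. Of 17 measured type I interferon genes 2 were lower, Rsad2 (12.6 against 84.3 CPM) and Irf7 (85.3 against 178 CPM), against 5.24% of all genes.

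Ranking microglia by these lists, from which the members were left out, separated the chemokines further. Over 5 equal bins from the lowest to the highest share of NF-kB genes, Cxcl10 went from 152 to 1773.5 CPM, Cxcl11 from 15.5 to 195 CPM and Cxcl2 from 0.912 to 206 CPM. Over the same bins Cxcl13 went from 1529.5 down to 497 CPM and Cxcl9 from 517 down to 120.2 CPM, while Cxcl16 stayed between 279 and 331 CPM. Ranked by the type I interferon list, Cxcl13 went from 151 to 2531 CPM, Cxcl9 from 47.7 to 648 CPM, Cxcl10 from 472 to 1827 CPM, Cxcl11 from 21.5 to 280.0 CPM and Cxcl16 from 167 to 439 CPM. The summed level of the 14 handling genes moved with both rankings, from 10527 to 21842 CPM over the NF-kB bins and from 22842 down to 12115 CPM over the interferon bins, and its part in these differences was not tested. Median depth was 4999.5 UMIs in the lowest interferon bin and 7077 in the highest, and 6660.5 and 6203 in the NF-kB bins.

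**Figure D4:**
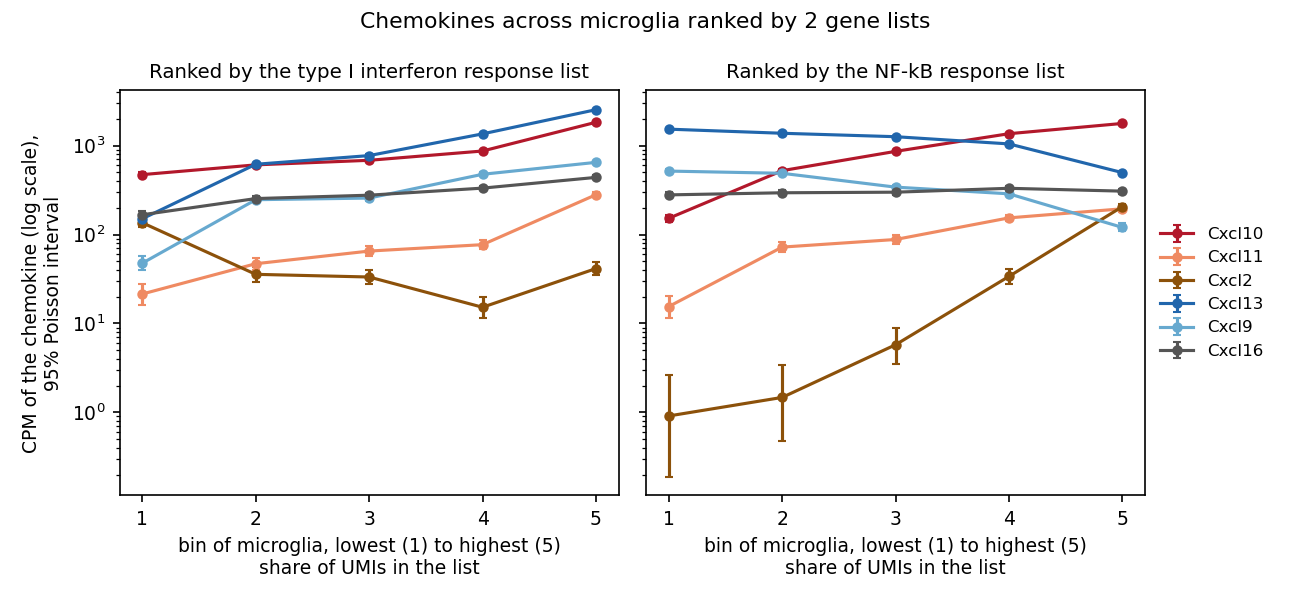
CPM of 6 chemokines on a log axis in 5 equal bins of microglia ranked by the share of their UMIs in the type I interferon list (left) or the NF-kB list (right), with exact 95% Poisson intervals. On the right Cxcl10 goes up from 152 to 1773.5 and Cxcl13 goes down from 1529.5 to 497. On the left both go up.

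Microglia were then split into 3 equal groups by each list at once, and the lowest and highest groups were compared. Cxcl10 was lowest where both lists were low, at 56.3 CPM (43.1 to 72.3), stood at 919 CPM with the NF-kB list alone high and 509 CPM with the interferon list alone high, and was highest where both were high, at 3010.5 CPM (2921 to 3102), in 79.3% of 184 cells. Cxcl11 stood at 11.1, 39.2, 75.4 and 440 CPM in the same 4 groups, also lowest and highest at the ends but with the middle 2 in the other order. Cxcl13 stood at 513, 77.6, 2250.4 and 1845 CPM, and Cxcl9 at 203, 27.8, 815 and 491 CPM. For both of these the lowest of the 4 levels was therefore in cells with the NF-kB list high and the interferon list low, which is where Cxcl2 was highest, at 186 CPM.

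**Figure D5:**
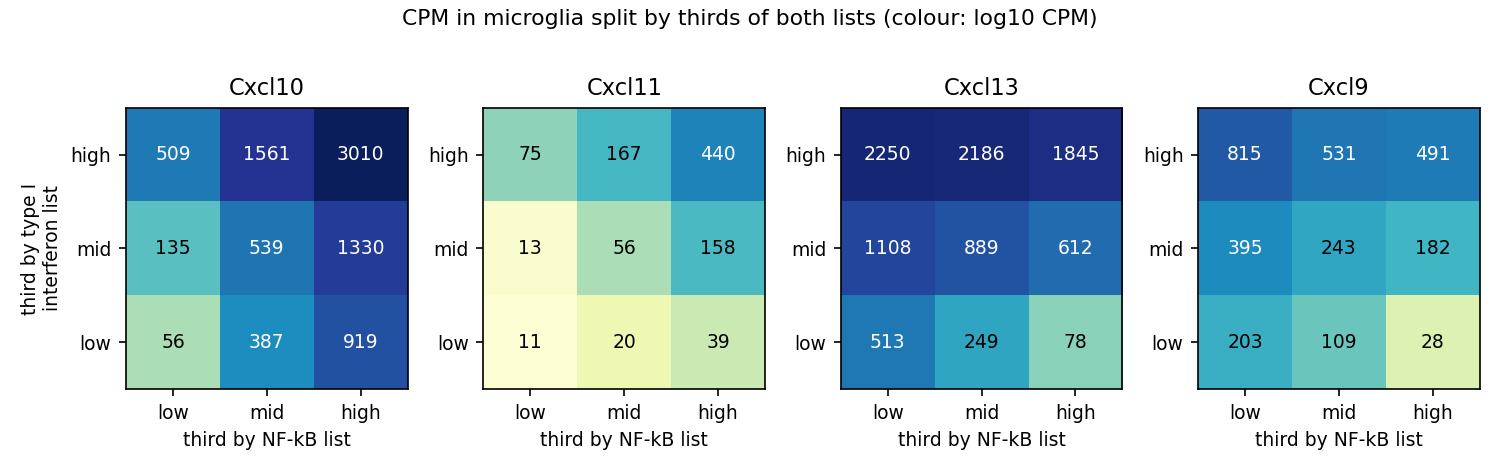
CPM of 4 chemokines in microglia split into 3 equal groups by the NF-kB list (horizontal) and by the type I interferon list (vertical), with the values printed and coloured on a log10 scale. Cxcl10 is highest, at 3010.5, where both lists are high, while Cxcl13 and Cxcl9 are highest, at 2250.4 and 815, where only the interferon list is high.

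Ependymal Cxcl10 was concentrated in cells with the interferon genes. In ependymal cells with a Cxcl10 UMI (109 of 601), all 18 type I interferon genes and 15 of 17 measured interferon gamma and GTPase genes were higher, against 2.89% of all 11289 genes, with median log2 ratios of 1.90 and 1.79 against -0.01. Mx1, an antiviral GTPase, stood at 150.5 against 6.24 CPM, Rsad2 at 795 against 68.6 CPM and Gbp5 at 448 against 33.3 CPM. Of 13 measured NF-kB genes 4 were higher, led by Icam1 (ratio 4.43), and 1 was lower (Il1a, 2 against 22 UMIs), against 3.19% of all genes. None of the 6 measured homeostatic microglia genes was higher in those cells, and 2 were lower, Csf1r and Cx3cr1, on 24 and 23 UMIs. Ranked by the type I interferon list, Cxcl10 went from 14.8 CPM in the lowest bin to 1866 CPM in the highest, where 120 cells held 1476 of the 1674 UMIs, while Cxcl14 went from 28.3 to 51.8 CPM. Just 8 cells held at least 50% of the ependymal UMIs.

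Ependymal cells with the vector's EGFP transcript (48) stood at 1489 CPM for Cxcl10, and those without (553) at 327 CPM, a ratio of 4.55 (4.10 to 5.04). The share of cells with a UMI was 31.2% (18.7 to 46.3) against 17.0% (14.0 to 20.4). A single EGFP cell held 304 of the 564 UMIs, and without it the ratio was 2.18, and 1.60 without the top 2 EGFP cells. The other group kept its own top cell in both ratios, with 130 of its 1110 UMIs. Lack of an EGFP UMI does not show that a cell lacked the vector. Cxcl14 did not move with EGFP, at 50.2 against 44.5 CPM (ratio 1.13, 0.660 to 1.82). EGFP cells were slightly deeper, at a median of 6450.0 against 5562 UMIs.

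Endothelial Cxcl10 came with both interferon genes and microglial RNA. In 107 endothelial cells with a Cxcl10 UMI, 11 of 18 type I interferon genes and 8 of 17 measured NF-kB genes were higher, against 6.82% of all 10659 genes, led by Mx1 (91.3 against 10.0 CPM) and Tnf (160 against 6.68 CPM). In the same cells 6 of 7 measured homeostatic microglia genes were higher too, among them Selplg at 31.0 against 4.75 CPM, Csf1r at 65.5 against 13.7 CPM and Gpr34 at 20.7 against 4.92 CPM, and their part in the result was not tested. The endothelial Cxcl10 level was 78.7 CPM, or 52.4 CPM without the top cell and 149.6 CPM with types taken from clusters. The clusters named endothelial took in a cluster of 46 cells, of which 25 passed the T or NK gate. They also took in a cluster of 116 cells, of which 62 reached several gates. Cxcl9 stood at 56.5 CPM, with 204 of 354 UMIs in 1 cell, and at 24.0 CPM without it.
In 61 endothelial cells with Cxcl1, 7 of 17 NF-kB genes were higher, against 4.22% of all genes, led by Icam1 (488 against 98.4 CPM), Tnfaip3 (149 against 37.8 CPM) and Ptgs2 (106 against 38.8 CPM), and 3 were lower, Il1a, Il1b and Tnfaip2, on 1 to 3 UMIs with Cxcl1, against 9.09%. The handling list had 6 of 14 genes higher in those cells, Zfp36, Atf3 and Fosb in the lead, and its part was not tested.

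In astrocytes with a Cxcl14 UMI, 5 of 12 measured handling genes were lower, against 3.97% of all 5817 genes, led by Hspa1b (15.7 against 140.5 CPM), Hspa1a (13.1 against 78.0 CPM) and Egr1 (49.6 against 156 CPM). Of 14 measured type I interferon genes 2 were higher, Isg15 (233 against 98.8 CPM) and Usp18 (ratio 2.09, 0.838 to 6.24), against 6.02% of all genes. That list as a whole was not higher, with a median log2 ratio of -0.13 against -0.03 over all genes. Zfp36, of the handling list, was higher as well (ratio 2.41, 0.902 to 8.09). The depth of the 2 groups differed as given above.

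Among types of at least 20 cells, Cxcr3, Cxcr5 and Cxcr6 had their highest levels in other types than their ligands, on few cells. Cxcr3, with 48 UMIs in the whole library, stood at 71.5 CPM (28.7 to 147) in T or NK cells, in 7 of 25 cells. B cells stood at 19.1 CPM (5.21 to 48.9) and border macrophages at 14.4 CPM. Cxcr6, the receptor of Cxcl16, stood at 469.7 CPM (344 to 627) in T or NK cells, in 15 of 25, and at 3.03 CPM in endothelial cells. Cxcr5, the receptor of Cxcl13, had 62 UMIs in all, of which 38 lay in microglia, at 2.32 CPM. B cells had 5, at 23.9 CPM (7.76 to 55.8, 4 of 35 cells), an interval that overlapped that of the next type. Cxcr2 had 5 UMIs, 3 of them in the single neutrophil. Cxcr4 was shared by many types, with 85.8 CPM in recruited macrophages and 82.0 CPM (77.7 to 86.5) in microglia, and Ackr3 stood at 92.3 CPM in ependymal cells and 70.1 CPM in endothelial cells. Ackr1, which binds many chemokines on venules, stood at 95.3 CPM in venous and 3.05 CPM in capillary cells, with 18 of 33 venous UMIs in 1 cell. Ifng, the cytokine that induces the Cxcr3 ligands, stood at 1899 CPM in T or NK cells, in 15 of 25, which held 186 of its 306 UMIs. Among the other CXC ligands Pf4 marked border macrophages at 2053 CPM (92.1% of cells), and Ppbp, Cxcl17, Cxcl5 and Cxcl3 had at most 20 UMIs each.

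Likeness to other genes is a description over 11 types that share a library, or over cells of 1 type that differ in depth. Over types the genes most like Cxcl13 were Bco2, Cyb561a3 and Nlrp1b (Pearson's r 0.93, 0.92 and 0.91), those most like Cxcl12 were Ltbp4, Osbpl10 and Cnot6 (0.95, 0.94 and 0.94), and those most like Cxcl14 were Ttyh1, Gli2 and Scara3 (0.93 each). Over 2356 microglia Cxcl10 was most like Tlr2 and Acod1 (0.35 and 0.34) and Cxcl13 most like Ifitm3 and Ccl5 (0.45 and 0.44). Over 1532 endothelial cells Cxcl12 was most like Spock2 (0.29), a marker used for the capillary gate.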

How the data were processed

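The authors deposited UMI counts per gene and barcode. The submitters' processing notes name Cell Ranger 8.0.1 and the build GRCm39. The counts are raw and not normalized. Which gene annotation was used, and any filter before deposit, were not given in the sources used here. Members, gene lists and marker sets were chosen with earlier results of these data known.

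Barcodes with at least 500 genes and at most 15% mitochondrial UMIs were kept. A cell passed a type's gate with at least 3 of its markers detected and a share of markers at least 1.5 times that of the next type, and 2 of 124 markers were not among the features. This scoring rule, the comparison by EGFP, the split by 2 lists, the comparison by Ifnb1 and the genes used to measure carried-over RNA were set after the data were seen. Endothelial zones needed 2 markers. Doublets were called with Scrublet at an expected rate of 0.05 (261 barcodes, 4.02%).

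CPM has exact Poisson intervals, shares of cells Clopper-Pearson intervals, ratios exact binomial intervals, all at 95%. A count of 0 is given with the limit that 3 counts set, or with its exact Poisson interval where a range is printed. Ratio medians used 0.5 UMI added. Cells thinned to 2000 UMIs numbered 5932. The ratio and interval code was tested on simulated data. Of each list the text names up to 3 genes of largest and smallest ratio. For likeness, the 3 most like genes over types and 5 over cells were selected, not all of which are printed. The work used scipy 1.17.1 for intervals, scanpy 1.11.5 with igraph 0.11.9 and scikit-learn 1.9.0 for clusters and doublets, and pandas 2.3.3, numpy 2.4.6 and matplotlib 3.10.9, in Python 3.11.15. Alternatives were a stricter cell filter, doublet removal, stricter gates, 23 Leiden clusters, equal weights for cells, leaving out the top cell, thinning, other positive and count limits and 3 bins.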

Additional observations from a re-analysis of the deposited data

Results flagged for a closer look

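Barcodes that reached no type gate for want of markers (479) entered no comparison of gated types above. They do count in the totals behind the UMI shares and in the levels by cluster. A cluster of 201 cells named border macrophage held 99 of them. These 479 barcodes held chemokine UMIs above the limit that a count of 0 allows. Cxcl10 stood there at 596 CPM, Cxcl13 at 587 CPM, Cxcl9 at 489.8 CPM and Cxcl16 at 387 CPM. Cxcl2 stood at 96.3 CPM, Cxcl11 at 53.2 CPM, Cxcl1 at 15.2 CPM, Cxcl14 at 12.7 CPM and Cxcl12 at 5.58 CPM. The genes that set these barcodes apart were led by Gpnmb, Chil3, Anxa2r1, Ly6d, Ms4a7 and Spp1, and the microglia gate rests on homeostatic markers such as P2ry12 and Tmem119. The Cxcl9 level there was above that of gated microglia (354 CPM), and the Cxcl13 level below it (1149.9 CPM).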

How the results depend on the processing

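Of 178 recomputed values 117 stayed within the counting interval of the value given above, or for counts within 1.5 times it, and 61 moved beyond. None of the recomputed ratios and differences changed direction, but the order of recruited over border macrophages for Cxcl2 turned round under a stricter gate (718 against 909 CPM) and without their top cells (715 against 723 CPM), and that for Cxcl1 without their top cells (9.59 against 15.5 CPM). No replicate could be left out and no paired analysis was possible because the series has 1 such library. A stricter gate gave microglial levels of 336 CPM for Cxcl9, 903 for Cxcl10, 95.3 for Cxcl11, 1109.8 for Cxcl13 and 289.5 for Cxcl16. Types from clusters gave 365 CPM for Cxcl9, 943 for Cxcl10 and 1121.5 for Cxcl13 in microglia, 1374 for endothelial Cxcl12 and 514 for Cxcl2 in border macrophages. Levels by cluster include cells that passed another gate or none. Cells weighed equally gave 287 CPM for Cxcl9, 834 for Cxcl10, 89.1 for Cxcl11, 966 for Cxcl13 and 276 for Cxcl16 in microglia, and 1711 for Cxcl12 and 17.2 for Cxcl1 in endothelial cells. Without the top cell, microglial Cxcl9 was 342 CPM, microglial Cxcl13 1130.2 and border macrophage Cxcl2 723. Without called doublets endothelial Cxcl12 was 1567 CPM. Thinning to 2000 UMIs lowered the shares of microglia with a UMI to 15.9% for Cxcl9, 30.6% for Cxcl10, 7.95% for Cxcl11, 30.6% for Cxcl13 and 38.5% for Cxcl16, and of endothelial cells to 73.2% for Cxcl12 and 2.40% for Cxcl1. It changed the difference in Cxcl10-positive microglia to 55.9 percentage points by Cxcl11 (from 50.5) and 13.7 by Cxcl2 (from 24.8). The 5 lipid and phagocytosis genes higher with Cxcl16 were 2 when positive cells needed 2 UMIs and 0 when called at 2000 UMIs. With 3 bins in place of 5, log2 ratios of the highest over the lowest NF-kB bin were 2.56 for Cxcl10, -1.01 for Cxcl13 and -1.39 for Cxcl9, and over the interferon bins 1.43, 3.21 and 2.77 in the same order. The EGFP ratio of 4.55 was 2.18 without the top EGFP cell and 1.60 without the top 2 EGFP cells, alternatives chosen after seeing the data. The causes of these shifts were not tested beyond what each setting changes by construction. Depth limits the rare members: in 146 astrocytes a count of 0 allows up to 5.22 CPM at 3 counts.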

Other observations

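Ifnb1, which encodes interferon beta, had 175 UMIs in 30 cells, of which 119 lay in 27 microglia and 52 in 1 endothelial cell. Microglia with an Ifnb1 UMI stood at 3624 CPM for Cxcl10 and the other 2329 at 886 CPM, a ratio of 4.09 (3.80 to 4.397), with a Cxcl10 UMI in 20 of 27 cells (74.1%, 53.7 to 88.9) against 38.6%. Cxcl11 stood at 461 against 98.8 CPM (ratio 4.67, 3.77 to 5.72) and Cxcl13 at 3572 against 1118 CPM (3.20, 2.97 to 3.44). Cxcl9 differed less, at 587 against 351 CPM (1.67, 1.39 to 1.995). Cxcl2 stood at 9.32 against 47.8 CPM, from 2 UMIs, but its share of cells was not lower, at 7.41% (0.910 to 24.3) against 4.64%. The cells with Ifnb1 were deeper, at a median of 8111 against 6561 UMIs, and 27 cells of 1 library are no replicates.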
